A study of Mus musculus with 4 samples.

Results

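The basal effect of p53 loss was read from untreated p53-/- mouse embryonic fibroblasts (MEFs) set against untreated WT (p53+/+) MEFs. Total RNA of each culture was hybridized to 1 single-color Agilent mouse array, and no agent was added to either culture. The comparison took every probe that was well above background on at least 1 of these 2 arrays, which was 23574 of the 39429 probes that are not controls (59.8%) and, with 1 probe a gene, 18918 of 31698 genes. Of these probes, 21546 were well above background in both cultures, 1124 in WT MEFs only and 904 in p53-/- MEFs only. A WT and a p53-/- culture treated with doxorubicin, a DNA-damaging agent, filled the other 2 arrays of the series, and their values are given beside the untreated ones where stated.

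The labels give genotype and agent and no sex, passage, strain or number of embryos, and MEFs from whole embryos can hold several kinds of mesenchymal cell. With 1 array in each group no p-value can be had. The array is not repeated, so every difference below is a difference between 2 cultures, and genotype cannot be told apart from any other way in which these cultures differed. In a bulk sample, fewer cells of a type and less RNA per cell cannot be told apart either. Probes spotted 10 times gave the only measure of error. The SD of their log2 ratio between the arrays was 0.12 (261 probes), which covers spots on an array and not cultures.

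p53 is a transcription factor that binds DNA at a pair of short elements in or near its target genes. In unstressed cells Mdm2, itself a p53 target, keeps the protein at a low level, and DNA damage releases it. Its targets include Cdkn1a, which encodes the p21 inhibitor of cyclin-dependent kinases, and genes for apoptosis, DNA repair and metabolism. When these kinases are inhibited, the DREAM complex of Rb-like and E2F proteins represses cell cycle genes, many of them through a promoter element called the cell cycle genes homology region (CHR) or through E2F sites.

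To show these elements in genes that differed between the cultures, matches were read from RefSeq promoters (GRCm38.p6), each running from 250 bases before to 50 bases after a transcription start. Of 13963 RefSeq genes measured on both arrays, 10697 had a promoter in this table. The p53 site was searched as a pair of 10-base p53 elements with at most 1 mismatch in all and a spacer of at most 13 bases. This pattern reads alike on both strands. The 2 strongest p53 target promoters with a match follow, with the matched site and any spacer in capitals. For Cdkn1a the match lay 51 to 32 bases before the upstream of its starts in the table, at chr17:29090898-29090977 on the plus strand. For Ccng1, a cyclin-related gene, it lay 195 to 176 bases before the start, at chr11:40755432-40755511 on the minus strand. Each had 1 mismatch and no spacer, and each stretch shown here ends before the start.
Cdkn1a: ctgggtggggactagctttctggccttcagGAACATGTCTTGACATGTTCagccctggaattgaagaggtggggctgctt
Ccng1: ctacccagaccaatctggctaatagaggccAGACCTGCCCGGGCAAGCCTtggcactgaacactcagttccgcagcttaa

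The CHR was searched as TTTGAA or TTCGAA on both strands. Where a promoter held several matches, only the last in the window was marked, and the Mki67 stretch holds another TTTGAA in lower case. Of the mitosis genes at least 2-fold higher in p53-/- MEFs, 16 had a match. Shown are 4 of these with the marked match upstream of the start. Prc1, Cdc20 and Kif2c also had the marked match upstream, and the rest, such as Plk1 and Bub1, had it after the start. The element is in capitals as it reads on the gene's own strand. Mki67, the Ki-67 proliferation marker, held it 98 to 93 bases before the start (chr7:135716442-135716507, minus strand). Ube2c, the ubiquitin-conjugating enzyme of the anaphase-promoting complex, held it 29 to 24 bases before the start (chr2:164769870-164769928, plus strand). Top2a, the DNA topoisomerase of mitotic chromosomes, held it 23 to 18 bases before the start (chr11:99024190-99024242, minus strand). Kif11, a spindle motor, held it 19 to 14 bases before the start (chr19:37376333-37376381, plus strand).
Mki67: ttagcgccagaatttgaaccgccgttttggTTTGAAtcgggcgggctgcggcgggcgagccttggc
Ube2c: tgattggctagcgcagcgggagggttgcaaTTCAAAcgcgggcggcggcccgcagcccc
Top2a: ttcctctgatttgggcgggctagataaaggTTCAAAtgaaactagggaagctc
Kif11: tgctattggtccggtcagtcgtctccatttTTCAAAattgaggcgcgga

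The E2F site was searched as TTTGGCGC or TTTCGCGC on both strands. Of 9 measured DNA replication genes with a match, the 3 with the highest ratios are shown, with the site in capitals. The others, from Mcm6 at a log2 ratio of 0.21 to Rfc3 at 0.95, were less than 2-fold apart. Orc1, a subunit of the origin recognition complex, held the site 27 to 20 bases before the start (chr4:108579397-108579453, plus strand). Uhrf1, which helps copy DNA methylation at replication forks, held it 185 to 178 bases before the start (chr17:56304098-56304165, plus strand). Mcm5, a subunit of the replicative helicase, held it 149 to 142 bases before the start (chr8:75109330-75109397, plus strand). An overlapping TTTCGCGC in the Mcm5 stretch begins in the lower case before the capitals.
Orc1: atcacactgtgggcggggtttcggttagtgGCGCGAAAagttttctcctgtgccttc
Uhrf1: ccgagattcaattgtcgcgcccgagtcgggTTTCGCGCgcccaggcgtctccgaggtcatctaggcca
Mcm5: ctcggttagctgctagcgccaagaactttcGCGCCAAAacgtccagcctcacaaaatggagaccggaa

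Values below are Feature Extraction signals on each array, and log2 ratios of p53-/- over WT after each signal was divided by its array's 75th percentile (2074 in WT and 1881 in p53-/- MEFs). The lowest signal called well above background was 56.7 in WT and 57.9 in p53-/- MEFs, and the highest signal not so called was 89.2 and 88.6. Negative control spots (153 on an array) reached 108 in WT and 250.1 in p53-/- MEFs, and a dim gene, above all in p53-/- MEFs, can therefore be background. A gene was called measured where its brightest probe was well above background on both untreated arrays, and was called where it was at least 2-fold apart.

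Trp53 itself, the targeted gene, had a signal of 1228 in untreated WT and 442 in untreated p53-/- MEFs, a log2 ratio of -1.33. With doxorubicin its signals were 3442 in WT and 543 in p53-/- MEFs. Both p53-/- arrays therefore lay below both WT arrays, and a signal above background remained in p53-/- MEFs. The probe lies at chr11:69404204-69404263 on the plus strand (mm9), and whether it is inside the deleted part of the gene is not given in the sources used here. The 3 measured genes nearest to it on each side had ratios from -0.59 (Atp1b2) to 0.91 (Efnb3), with Kdm6b, Sat2 and Fxr2 at 0.22, -0.30 and 0.08. Wrap53, which overlaps the other strand of Trp53, had signals of 5657 and 5702. Over the 136 measured genes within 5 Mb of the probe the median log2 ratio was -0.007, with a range from -1.17 to 1.89 (Myocd). Of these genes 7 were at least 2-fold higher and 1 was at least 2-fold lower, against 2.15% and 2.62% of all genes.

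Most genes had similar signals in both cultures. Of the 18918 genes, 17279 were measured in both cultures, 917 were above background in WT MEFs only and 719 in p53-/- MEFs only, and 3 had no value on 1 of the arrays. Of the 17279 genes, 824 were at least 2-fold apart (4.77%), with 372 higher (2.15%) and 452 lower (2.62%) in p53-/- MEFs. The median log2 ratio over all of them was -0.0028 with an SD of 0.49 across genes, and 82.6% were within 1.5-fold. The large differences lay on the lower side. At least 4-fold apart were 57 lower and 13 higher genes, and at least 8-fold apart were 10 lower and 0 higher genes. Among the 14229 genes above the brightest negative control on both arrays, 288 were lower and 284 higher. At least 4-fold apart among them were 27 lower and 5 higher genes. That limit was 108 in WT and 250.1 in p53-/- MEFs, so it can remove more genes that are dim in p53-/- MEFs. It is set by the brightest spot, and the 95th percentile of the negative controls was 23.0 in WT and 31.5 in p53-/- MEFs.

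**Figure D1:**
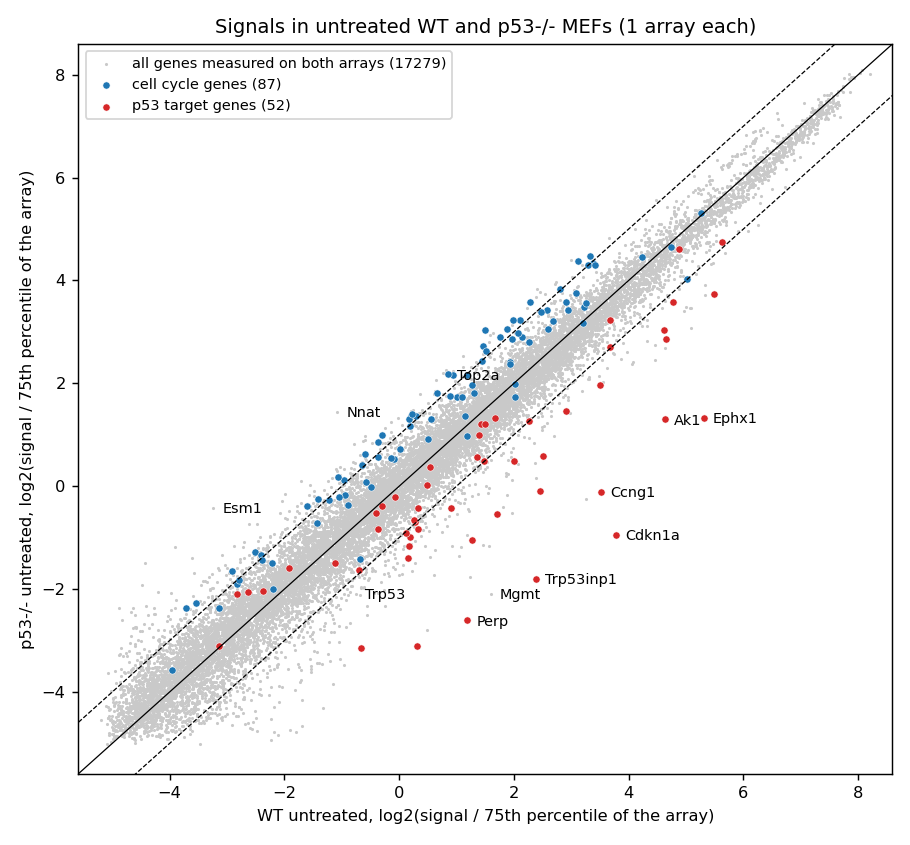
Signal in untreated p53-/- MEFs against untreated WT MEFs on log2 axes, each divided by its array's 75th percentile, for the 17279 genes measured on both arrays (grey), with 52 p53 target genes in red and 87 cell cycle genes in blue. The solid line marks equal values and the dashed lines a 2-fold difference: 26 p53 target genes lie below the lower dashed line, and 32 cell cycle genes lie above the upper one.

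Of the 12 genes with the lowest ratios above the negative controls, 7 were in the p53 target lists. These lists held 49 of the 14229 genes above the brightest negative control on both arrays. They were made with earlier results of these data known, so the overlap is a description and not independent support. Cdkn1a had the lowest ratio, with signals of 28619 in WT and 977 in p53-/- MEFs (26.6-fold lower). Trp53inp1, which promotes p53-dependent apoptosis and autophagy, had signals of 10765 in WT and 541 in p53-/- MEFs (18.1-fold lower), and a second probe gave a log2 ratio of -2.05. Ephx1, a microsomal epoxide hydrolase of xenobiotic metabolism, had signals of 82048 and 4730 (15.7-fold lower), and its second probe gave -2.59. Perp, a tetraspan membrane protein of desmosomes and apoptosis, had signals of 4714 and 309 (13.8-fold lower). Ccng1, Ak1 and Zmat3 were 12.4-, 10.05- and 5.84-fold lower. Both second probes gave the same direction and a smaller size.

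The other 5 of these 12 genes were not in a list. Mgmt, which removes alkyl groups from guanine in DNA, had signals of 6258 and 442 (12.8-fold lower). Anxa8, a calcium-dependent phospholipid-binding annexin, had signals of 19891 and 1583 (11.4-fold lower). Tbc1d2, a Rab GTPase-activating protein, was 7.94-fold lower and its 2 probes gave -2.99 and -2.98. Psrc1, a microtubule-binding protein, and Cpz, a secreted carboxypeptidase, were 6.599- and 6.05-fold lower. All 12 genes were also lower in p53-/- than in WT MEFs on the doxorubicin arrays, by log2 ratios from -6.27 (Cpz) to -3.62 (Zmat3).

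The 12 genes with the highest ratios above the negative controls belonged to no shared group among the lists. Their WT signals ran from 113 (Gm833) to 983 (Nnat). On the doxorubicin arrays Fgf13, Cntfr and Gm833 had ratios below 0 (-1.01, -2.17 and -0.91). The others lay above 0, from 0.16 (Gm5553) to 5.51 (Cxcl10). Gm833 and Batf3 were not well above background on both doxorubicin arrays. Esm1, a secreted proteoglycan of endothelial cells, had signals of 219 in WT and 1409 in p53-/- MEFs (7.09-fold higher). Fgf13, an intracellular fibroblast growth factor homologue, had signals of 138 and 832 (6.64-fold higher). Nnat, an imprinted gene for a small membrane protein, had signals of 983 and 5114 (5.73-fold higher), and its second probe gave a log2 ratio of 2.41. Also in this set were the histone genes H2bu2 (2.21) and H2bc18 (1.81), the smooth muscle coactivator gene Myocd (1.89), the predicted genes Gm833 (2.14) and Gm5553 (1.89), the receptor genes Cntfr (1.87) and Adcyap1r1 (1.75), the chemokine gene Cxcl10 (1.85) and the transcription factor gene Batf3 (1.74).

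Some genes were above background in 1 culture only, which gives a bound against the lowest signal called above background on the other array. In WT MEFs alone, Dglucy, a mitochondrial glutamate cyclase, had a signal of 2900 against 40.3 in p53-/- MEFs, at least 45.4-fold lower. Against the brightest negative control that bound was 10.5-fold, and for the 5 genes of this kind named next it was between 2.05- and 2.88-fold. The leukotriene receptor gene Ltb4r1 was at least 12.4-fold lower and the carboxylesterase gene Ces2e at least 11.1-fold lower, and both were above background with doxorubicin in WT MEFs only (signals of 16523 and 28011). Taf4b, a TFIID subunit, Dnajc28, a J-domain protein, and Spdya, a CDK activator, were at least 9.72-, 9.14- and 8.87-fold lower. With doxorubicin the direction for Spdya was the opposite, at signals of 66.5 in WT and 238 in p53-/- MEFs. In p53-/- MEFs alone, AI182371 (at least 10.2-fold higher), Rab26, a small GTPase of secretory vesicles (at least 9.31-fold), and Ibsp, a bone matrix protein (at least 9.04-fold), led. Their doxorubicin signals in p53-/- MEFs were 39.9, 58.4 and 28.03, and none was well above background on either doxorubicin array. Arhgap30, E130119H09Rik and Gm6818 followed at bounds of 8.47-, 8.33- and 8.28-fold. Their doxorubicin signals in p53-/- MEFs (42.2, 68.8 and 21.0) were below the lowest signal called on that array (87.1). Against the brightest negative control these 6 bounds were between 4.34- and 5.35-fold.

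p53 target genes had the lowest median of the lists. Of 57 listed genes, taken from general knowledge of p53 with earlier results of these data known, 52 were measured in both cultures. At least 2-fold lower were 26 of the 52, against 2.62% of all genes, and 0 were at least 2-fold higher, against 2.15%. The median log2 ratio was -0.998, and 47 of the 52 ratios were below 0. A further 3 were above background in WT MEFs only: Ptprv, a receptor-type phosphatase (signals of 534 and 15.5), Eda2r, a death receptor-like protein (262 and 24.8), and Tap1, a peptide transporter of antigen presentation (160 and 16.1). Rrm2b was above background in p53-/- MEFs only, at a signal of 81.5, and Abcb1a in neither.

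Among the targets that act in growth arrest, 3 of 9 measured genes were at least 2-fold lower. These were Cdkn1a, Ccng1 and Btg2. Btg2, an antiproliferative gene, had signals of 5025 and 906, a log2 ratio of -2.33. Gadd45a, which acts in growth arrest and repair, lay just inside the limit with signals of 5803 and 2646 (-0.99). Plk2 (-0.33), Plk3 (-0.21) and Sfn (0.34), a 14-3-3 protein, were within 1.5-fold. The arrest genes thus included the lowest ratio among genes measured in both cultures and genes that were nearly equal.

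Apoptosis genes were the most evenly lower of the target lists. All 15 measured members had ratios below 0, 10 were at least 2-fold lower, and the median was -1.45. Tnfrsf10b, the TRAIL death receptor, had signals of 11737 and 2814 (-1.92). The BH3-only genes Pmaip1 (Noxa) and Bbc3 (Puma) had ratios of -1.505 and -1.45, from signals of 8302 and 2653 and of 15633 and 5201. Fas, another death receptor, had signals of 2316 and 714 (-1.56). Apaf1, the scaffold of the apoptosome, was at -1.18, and Bax, the pore-forming effector, at -0.97 with signals of 26352 and 12193. Trp53i11 (-0.14) and Siva1 (-0.44) were closest to equal.

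Of the DNA repair targets 2 of 5 measured genes were at least 2-fold lower, namely Polk (-1.34), a translesion polymerase, and Ercc5 (-1.16), a nuclease of nucleotide excision repair. Xpc (-0.11) and Ddb2 (0.34), the damage sensors of the same pathway, and Polh (0.73), another translesion polymerase, were not. The metabolism and stress targets gave 6 of 12. Dcxr, a carbonyl reductase, had signals of 2574 and 218 (-3.42), and Ddit4l and Ddit4, inhibitors of mTORC1, had ratios of -2.47 and -1.58. The p53-/- signals of Dcxr and Ddit4l (213) were below the brightest negative control of that array, and without such genes the count was 4 of 10. Sesn2 was at -1.01 while its relative Sesn1 was at -0.09, Tigar at -0.16 and Gls2 at 0.58. The feedback and remaining targets gave 5 of 11: Ak1, an adenylate kinase (-3.33), Slc19a2, a thiamine transporter (-2.24), Mdm2 (-1.80, signals of 52283 and 13656), Sulf2, an extracellular sulfatase (-1.54), and Klhl26 (-1.03).

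**Figure D2:**
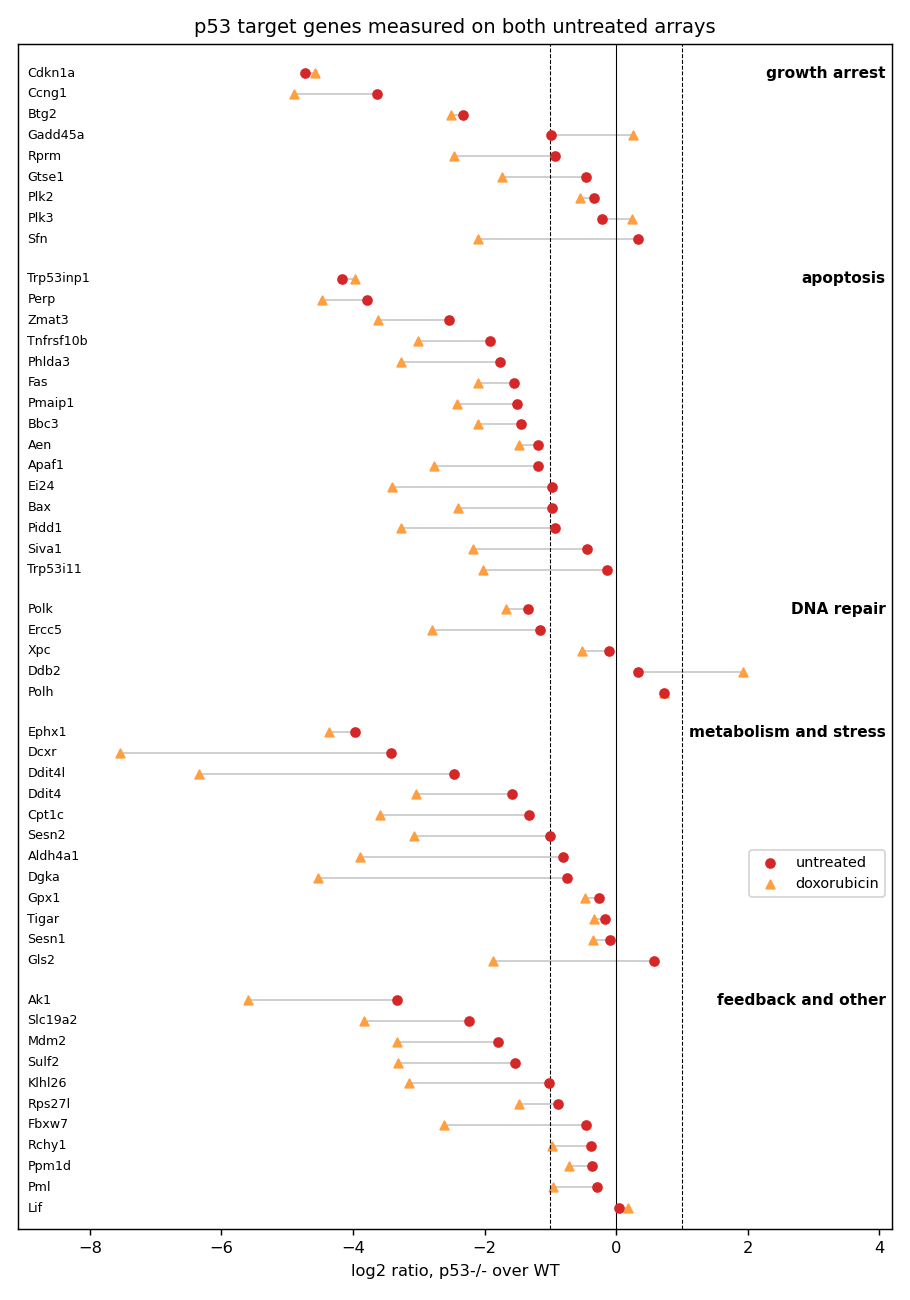
Log2 ratio of p53-/- over WT for 52 p53 target genes, sorted by role, in untreated MEFs (red circles) and in doxorubicin-treated MEFs (orange triangles, the other 2 arrays). Dashed lines mark 2-fold: 26 genes lie at or beyond the lower line untreated and 39 with doxorubicin, while Cdkn1a, Trp53inp1 and Btg2 lie at nearly the same place under both conditions.

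Set beside the doxorubicin-treated pair, which shares no array with the untreated pair, 39 of the 52 target genes were at least 2-fold lower in p53-/- MEFs, against 10.2% of all genes measured on 4 arrays, and 1 was higher, against 11.3%. Their median was -2.49. Cdkn1a had nearly the same ratio without (-4.73) and with the agent (-4.58), although its signals with doxorubicin were 105995 in WT and 5912 in p53-/- MEFs. Trp53inp1 (-4.17 and -3.98) and Btg2 (-2.33 and -2.51) were alike in this. By contrast, Dgka, a diacylglycerol kinase, had ratios of -0.75 and -4.54, and Aldh4a1, a mitochondrial dehydrogenase of proline breakdown, of -0.80 and -3.89. Ei24 (-0.97 and -3.40) and Trp53i11 (-0.14 and -2.03) also lay much further from 0 with doxorubicin. Differences between these ratios were not tested.

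The relatives and regulators of p53 differed less than its targets. Trp63 had signals of 3639 and 4631 (0.49), and Trp73 had signals of 184 and 249 (0.57), the latter at the level of the brightest negative control in p53-/- MEFs. Cdkn2a, which encodes p16 and the Mdm2 inhibitor ARF, had signals of 16450 in WT and 23601 in p53-/- MEFs (0.66). Hipk2, a kinase that phosphorylates p53, was at 0.94, with a second probe at 1.19. Mdm4 (-0.16), Usp7 (0.05), Cop1 (-0.19), Ppm1d (-0.36), Rchy1 (-0.39), Trp53bp2 (-0.42), Ppp1r13b (-0.56) and Ppp1r13l (-0.63) were all within 2-fold. Of the 14 genes, Mdm2 and Trp53 alone were called, both lower (14.3%, against 2.62% of all genes). Mdm2, Ppm1d and Rchy1 are also in the p53 target lists.

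Cell cycle genes were higher in p53-/- MEFs as a group. The 90 listed genes were also chosen with earlier results of these data known. Of these, 87 were measured in both cultures, and 32 were at least 2-fold higher, against 2.15% of all genes. None was at least 2-fold lower, against 2.62%. The median log2 ratio was 0.90, 80 of the 87 ratios were above 0, and the highest was 1.55, so the group differed by moderate amounts in many genes rather than by large amounts in a few.

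Mitosis genes were the furthest from equal, with 19 of 26 measured genes at least 2-fold higher and a median of 1.14. Top2a had signals of 3725 in WT and 8498 in p53-/- MEFs (1.33). Plk1, the kinase of mitotic entry and spindle assembly, had signals of 18022 and 39013 (1.26). Ube2c had signals of 10088 and 22442 (1.29). The spindle checkpoint kinase genes Ttk, Bub1b and Bub1 were at 1.34, 1.29 and 1.22. Pttg1, which encodes securin, was the one member below 0 (-0.02, signals of 8380 and 7478), and its second probe gave 0.81. Cenpf, a kinetochore protein, was above background in p53-/- MEFs only (signals of 38.5 and 97.2), and Aurkb in neither.

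DNA replication genes all had ratios above 0, from 0.21 (Mcm6 and Dut) to 1.27 (Orc1), with a median of 0.78, and 6 of 29 were at least 2-fold higher. Uhrf1 had signals of 8176 and 17727 (1.26), Mcm5 of 7024 and 14035 (1.14) and Mcm10 of 2433 and 4946 (1.16). Cdc6, a loader of the helicase, was at 1.07. Pcna (0.27) and Rrm1 (0.30) had the smaller ratios of the list although their signals were among the higher ones of the list (19295 and 21092 for Pcna).

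Of cyclins, their kinases and regulators, 5 of 16 were at least 2-fold higher. Ccnb1 (1.28), Cdc25c (1.23), Cdc25b (1.16), Ccna2 (1.13, signals of 8880 and 17599) and Cdk2 (1.10) were these genes, and Cdk1 (0.76), Ccnb2 (0.53) and Ccne1 (0.46) were above 0 by less. Of the G1 cyclins, Ccnd1 was at -0.04, Ccnd3 at -0.08 and Ccnd2 at -0.99 (signals of 67295 and 30784), and Cdk4 was at 0.05. Of the E2F and DREAM list 2 of 16 were at least 2-fold higher. These were Mybl2 (1.55, signals of 5823 and 15436) and Foxm1 (1.21), both activators of mitotic genes, whereas Rb1, the retinoblastoma protein, was lowest at -0.73.

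Genes of homologous recombination and its checkpoint, a separate list, had a median of 0.95. At least 2-fold higher were 5 of 12, against 2.15% of all genes. Rad51ap1 (1.22), Blm (1.18), Rad54l (1.09) and Exo1 (1.05) were in this set. Fancd2 had the highest ratio (1.33) at low signals of 87.3 and 199. The damage kinase genes Atm (0.31) and Atr (-0.05) were within 1.5-fold.

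The inhibitors of cyclin-dependent kinases went different ways. Cdkn1a was 26.6-fold lower, and Cdkn2b (p15) was at -0.94 with signals of 28464 and 13426. Cdkn2c (p18) was 2-fold higher (1.03, signals of 598 and 1107), and Cdkn2d (p19) was at 0.98. Cdkn1b (p27) was at 0.20, with a second probe at 0.73, and Cdkn1c (p57) at -0.12. Thus 1 of the 7 was called in each direction.

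**Figure D3:**
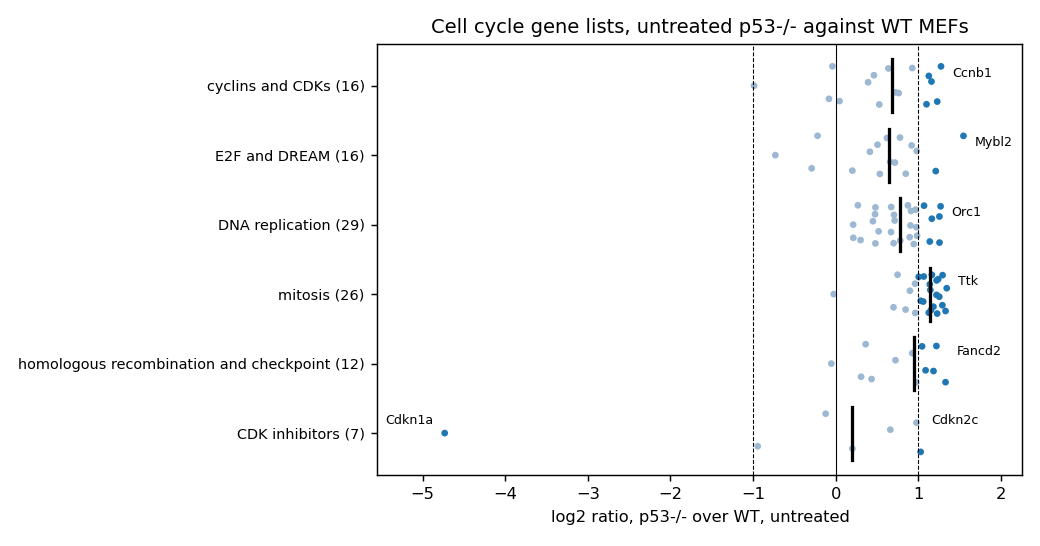
Log2 ratio of untreated p53-/- over WT MEFs for each measured gene of 4 cell cycle lists, the recombination list and the CDK inhibitors (points; number measured in brackets; vertical position within a row carries no value), with the list's median as a black bar. Dark points are at least 2-fold apart: 19 of 26 mitosis genes lie beyond the right dashed line, and Cdkn1a lies alone at the far left.

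With doxorubicin, 66 of the 80 cell cycle genes measured on all 4 arrays were at least 2-fold higher in p53-/- MEFs, against 11.3% of all genes, and their median was 2.997. The 3 at least 2-fold lower were Rb1 (-2.35), Ccnd2 (-1.55) and Rbl2 (-1.20), against 10.2%. The same 80 genes had a median of 0.89 without the agent. Top2a, for example, had ratios of 1.33 and 6.20. The order of lists was kept, with mitosis genes highest under both conditions (1.13 and 4.49 over the 22 genes measured on 4 arrays).

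The promoters of these groups differed in the elements they held. A CHR match was found in 76.9% of 26 promoters of measured mitosis genes, in 28.5% of 284 promoters of genes at least 2-fold higher, in 14.2% of 387 promoters of genes at least 2-fold lower and in 13.99% of 13599 promoters of all measured genes. An E2F match was found in 34.6% of 26 promoters of DNA replication genes, in 0% of the mitosis promoters, in 3.17% of the higher, 0.258% of the lower and 1.43% of all measured genes. The CCAAT box (CCAAT, both strands) was in 73.1% of mitosis, 69.2% of replication, 51.8% of higher, 36.2% of lower and 37.5% of all measured promoters. Over all 32851 promoters of the table the shares were 19.2% for CHR, 0.813% for E2F and 37.4% for CCAAT. A gene can have several promoters, and these letters are a match and not a site shown to be bound.

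The p53 site was rare in this window. It was matched in 3 of 387 promoters of the lower genes (0.775%), in 0 of 284 of the higher genes and in 0.515% of all measured promoters (0.627% of the table). The 3 lower genes were Cdkn1a, Ccng1 and Itm2a, a membrane protein gene on chromosome X at a log2 ratio of -1.11. Among the p53 target lists, where genes were listed partly because p53 is known to bind them, 5 of 63 promoters held it (7.94%). The 3 target genes beside Cdkn1a and Ccng1 were Rps27l (-0.89), Gtse1 (-0.46) and Pml (-0.28). The window does not reach distant or intronic sites.

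**Figure D4:**
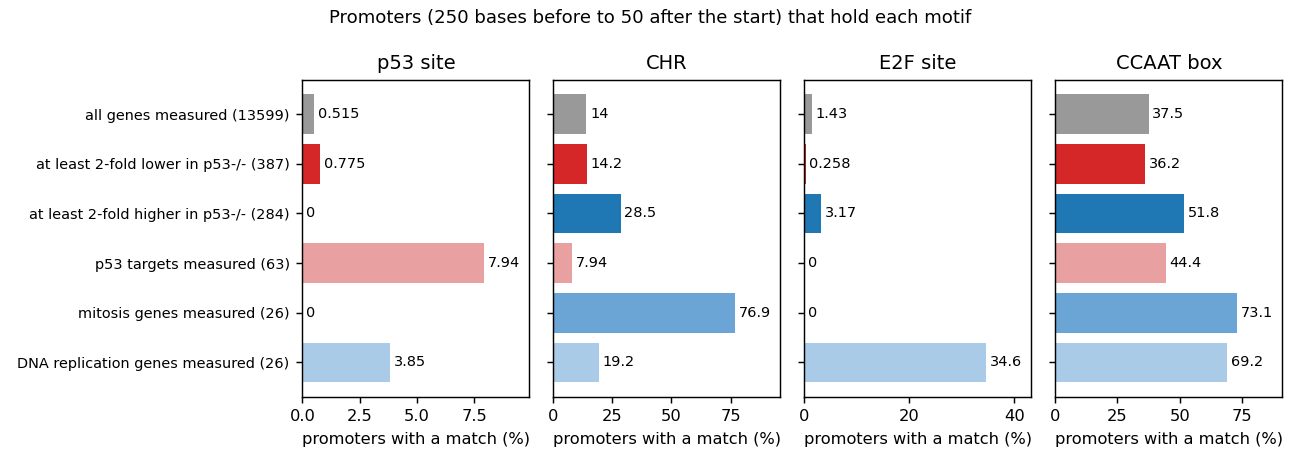
Share of RefSeq promoters (250 bases before to 50 bases after the start) with at least 1 match to the p53 site, the CHR, the E2F site and the CCAAT box, for 6 sets of genes with the number of promoters in brackets; each panel has its own axis from 0. CHR matches are most frequent in mitosis genes (76.9%) and E2F matches in DNA replication genes (34.6%).

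Matrix genes of the fibroblast were on the lower side, mostly by less than 2-fold. Of 18 collagen chains measured, 15 had ratios below 0, with a median of -0.58. At least 2-fold lower were 3, against 2.62% of all genes. Col18a1, a basement membrane collagen and the source of endostatin, had signals of 7608 and 1680 (-2.04), and Col5a3 (-1.33) and Col4a5 (-1.16) followed. The main fibrillar chains were close to equal, with Col1a1 at 0.09, Col1a2 at -0.19 and Col3a1 at -0.35. Of 27 matrix glycoproteins 23 were below 0, with a median of -0.45, and the small proteoglycan genes Lum (-1.34, signals of 18970 and 6819) and Dcn (-1.14, signals of 92164 and 37845) were called.

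Genes for matrix proteases and their inhibitors had a median of -0.56. Serpine2, a protease inhibitor, had signals of 4774 and 1377 (-1.65), Timp3, an inhibitor of metalloproteases, had signals of 66630.1 and 21133 (-1.52), and Mmp9 was the 1 member at least 2-fold higher (1.05, at signals of 164 and 309). Of the insulin-like growth factor system, 8 of 10 genes were below 0 and none was called. Igf1 was at -0.65 with other probes from -0.73 to 0.21, Igf2 at 0.68 and Igfbp7 at -0.93. In the TGF-beta list Ltbp2 (-1.17) and Tgfbr2 (-1.13, signals of 27381 and 11351, with a second probe at -0.30), the type II receptor, were lower and Bmp2 (1.07) was higher. Pdgfa, a growth factor for mesenchymal cells, was at -1.09, and the receptor gene Kit at 2.08 with low signals of 97.0 and 372.

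Hox genes specify position along the body axis. Of 36 measured, 6 were at least 2-fold higher, against 2.15% of all genes, and 0 lower, with a median of 0.36. Hoxa4 had signals of 83.2 and 279 (1.89), Hoxb8 of 602 and 1447 (1.41), Hoxc11 of 260 and 621 (1.40) and Hoxb6 of 2457 and 5232 (1.23). Hoxa5 (1.14) and Hoxc10 (1.03) were the others. Hoxd8 was lowest at -0.56. In the list of other positional and mesenchymal factors 0 of 27 were called, and its range was -0.72 (Prrx1) to 0.99 (Six2).

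Interferon-stimulated genes did not differ as a group in untreated cells. Their median was 0.11 over 24 measured genes, with 14 above and 10 below 0, and Cxcl10 was the 1 gene called (signals of 519 and 1694). Ifit1, an antiviral effector, was above background in p53-/- MEFs only (58.4 and 137), while Rsad2, Cmpk2 and Irf7 were above background in neither. With doxorubicin 22 of the same 24 genes were at least 2-fold higher in p53-/- MEFs, against 11.3% of all genes, with a median of 1.97. Of secreted cytokines, Cxcl14 (-1.497, signals of 41222 and 13244) and Ccl11 (-1.53, at low signals of 186 and 58.2) were lower and Ccl5 (1.18) was higher.

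Of 18 smooth muscle contractile genes 0 were called, from Des at -0.94 to Smtn at 0.56, and the median was -0.03. Dmpk, the myotonic dystrophy kinase that acts on myosin phosphatase, had signals of 9576 in WT and 10773 in p53-/- MEFs (0.31). With doxorubicin its signals were 37201 and 8162. Among the 27 myosin II regulators Dapk1, a death-associated kinase (-1.40, signals of 3259 and 1123), and Cdc42bpg (-1.15) were lower and Cit, the kinase of cytokinesis (1.496, at signals of 91.6 and 234), was higher. Cdc42bpa (-0.20), Rock1 (-0.21) and Ppp1r12a (-0.18) had ratios near 0, and other probes of these genes gave ratios up to 0.59, 0.54 and 0.16.

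Stress and metabolic lists held at most 2 called genes each, against 4.77% of all genes called in either direction. The share called ran from 0% to 12.5% (antioxidant), and each list was short. Of 16 antioxidant genes Sod3, the extracellular superoxide dismutase (-1.46, signals of 4552 and 1502), and Mgst1 (-1.09) were lower, and the median was -0.31. The integrated stress list had a median of -0.33 with 13 of 16 genes below 0 and Vldlr (-1.04) called. In the heat shock list Cryab, a small chaperone, was lower (-1.36, signals of 32484 and 11444) and the other 9 genes were within 1.5-fold. Klf4 (-1.39) was the 1 immediate early gene called, and Egr1 was at -0.85. No gene was called among 19 glycolytic genes (median 0.07), 23 of cholesterol and fatty acid synthesis (0.22), 22 ribosomal proteins (-0.21) or 12 reference genes (-0.07, from Hprt at -0.56 to Tbp at 0.23). B2m (-0.28), Gusb (-0.16), Sdha (-0.14) and Rplp0 (-0.13) lay below 0, and Pgk1 (0.10) and Ywhaz (0.19) above it. Ppia was at -0.00. Actb was at 0.03 and its other probe at 0.36, and Gapdh was at 0.12 with 6 other probes between 0.23 and 0.59.

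**Figure D5:**
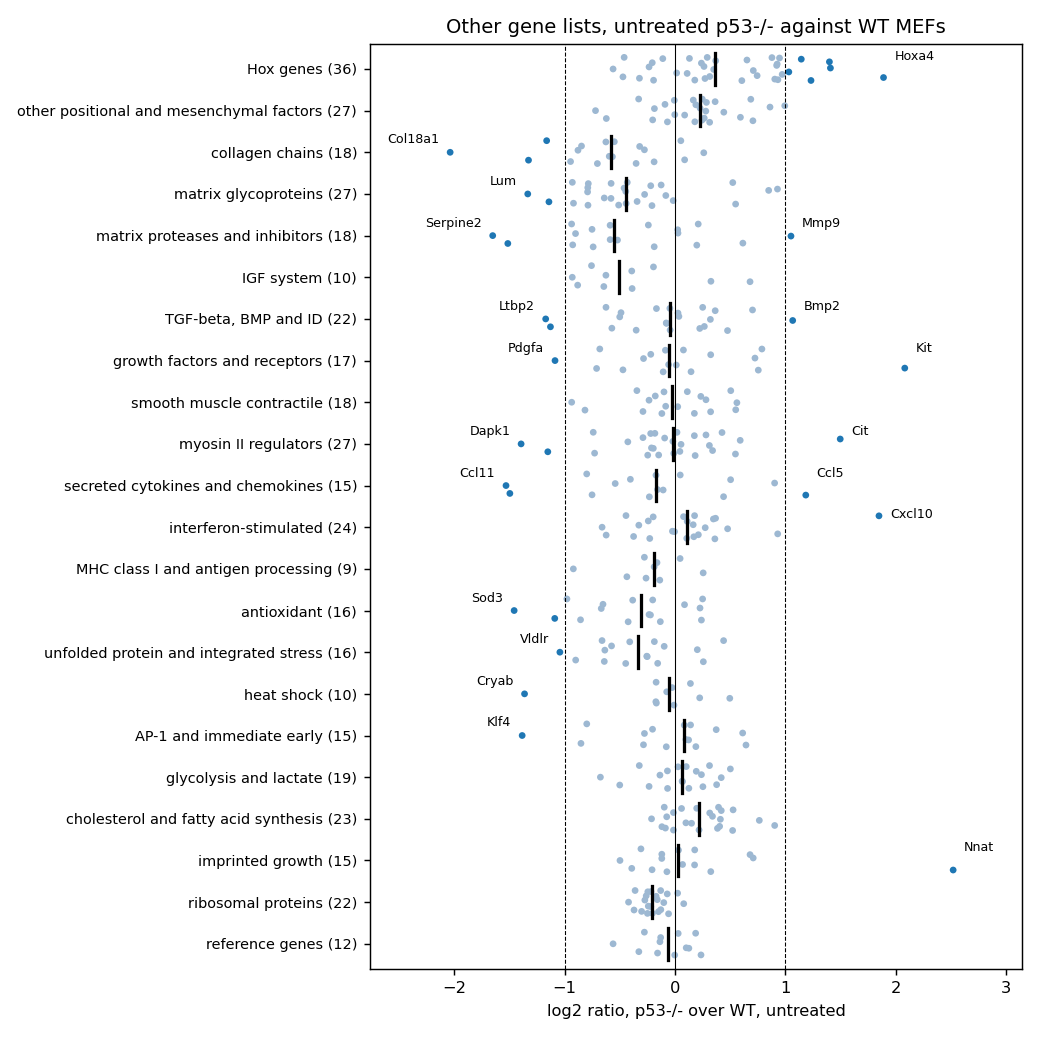
Log2 ratio of untreated p53-/- over WT MEFs for each measured gene of 22 further lists (points; number measured in brackets; vertical position within a row carries no value), with each list's median as a black bar and names for end members at least 2-fold apart. The medians lie between -0.58 (collagen chains) and 0.36 (Hox genes), and Nnat, Kit and Hoxa4 lie furthest to the right.

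The labelled cell type was checked against markers. All 12 fibroblast markers were measured in both cultures, with summed signals of 1821000 in WT and 1320430 in p53-/- MEFs, and S100a4 (-2.01, signals of 70490.3 and 15926), Lum and Dcn were at least 2-fold lower in p53-/- MEFs. The defining markers Epcam and Cdh1 (epithelial), Cdh5 and Tie1 (endothelial) and Myod1 and Myf5 (skeletal muscle) were not well above background in either culture. Other markers of these types were. Measured in both cultures were 5 of 9 epithelial markers (summed signals over the list of 12102 in WT and 10385 in p53-/- MEFs), 4 of 9 endothelial (11831 and 8642), 4 of 8 skeletal muscle (14534 and 15234), 6 of 9 neural (22011 and 26133), 4 of 6 adipocyte (6481 and 5307) and 4 of 7 cartilage and bone markers (14654 and 20866). Of 14 leukocyte markers 12 were measured, at summed signals of 41917 in WT and 41384 in p53-/- MEFs over the list. Itgam was at 26264 and 28368 and Ptprc at 65.3 and 71.6. Lyz2 (-1.16) and Laptm5 (-1.12) were lower, but neither was above the brightest negative control on both arrays. Emcn (1.10) and Cldn3 (1.37), single endothelial and epithelial markers, and Acan (1.17), a cartilage marker, were higher at signals of at most 421. The part of such cells in the matrix and Hox values was not tested. Ddx3y and Eif2s3y were measured in both cultures (5553 and 4379, and 3810 and 4126). Kdm5d was above background in WT MEFs only (91.9 and 12.6), and Xist, Tsix and Uty were not well above background in either.

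Median ratios differed little along the genome, while counts of called genes varied between windows. Median log2 ratios by autosome and X chromosome ran from -0.06 (chromosome 9) to 0.04 (chromosome 7). In 244 windows of 10 Mb with at least 20 measured genes, window medians ran from -0.27 to 0.31, and 3 were beyond 0.2 in either direction. The window at 20 to 30 Mb of chromosome 13 held 10 higher and 3 lower genes of 86. That at 50 to 60 Mb of chromosome 14 held 2 higher and 10 lower genes of 137. Over all genes the shares were 2.15% higher and 2.62% lower, and uneven spread was not tested. The share of genes at least 2-fold apart depended on signal. Of 5 bins of equal size by mean signal, the dimmest held 3.91% higher and 3.65% lower genes, and the brightest 0.666% and 1.48%.

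Across the 16505 genes measured on all 4 arrays, the untreated and doxorubicin-treated ratios of p53-/- over WT were correlated with r of 0.50 (Pearson) and rho of 0.44 (Spearman). These are across genes, which are not independent replicates, and the 2 ratios share no array. Of 415 genes at least 2-fold lower without the agent, 222 (53.5%) were also at least 2-fold lower with it, against 10.2% of all genes, and 23 were at least 2-fold higher. Of 310 genes at least 2-fold higher without it, 204 (65.8%) were also higher with it, against 11.3%, and 16 were lower.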

How the data were processed

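The authors primed 200 ng of total RNA per culture with oligo-dT, labeled it with Cy3, hybridized 1 array per culture and read it with Feature Extraction 10.7.3.1. The deposited intensity of a spot was background-subtracted by that program, with no normalization between arrays, and the deposited table of values equaled it at every spot. The authors' methods name fold changes in the Subio Platform, which were not used. Deposited mean spot and local background intensities served 1 alternative.

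Spots flagged as outliers were dropped (162 in WT and 145 in p53-/- MEFs), and saturation affected 0 spots. Repeat spots were averaged on the log2 scale and arrays were scaled to their 75th percentile (Python 3.11.15, pandas 2.3.3; R 4.3.3 and limma 3.58.1 for normexp). The probe brightest on average across the 4 arrays stood for its gene. Probes carry mm9 positions, and 30198 were named by RefSeq and 9231 by the files. Arrays have no read depth, and their number limits the precision. No test was run. The steps were tested on simulated arrays.

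The comparison, gene lists and naming rules were chosen with earlier results of these data known. Genes to name were drawn from the members of short lists, the 5 highest and 5 lowest of longer ones, the 12 highest and 12 lowest genes above the negative controls, the 6 largest bounds each way, the neighbors of Trp53 and genes named in the study. List members between these ranks, and Itm2a, were named after their values were seen. Many members of the lists were counted and not named, and some items are not reported here. Alternatives covered scaling, background, filters, the probe of a gene and the fold limit.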

Additional observations from a re-analysis of the deposited data

Results flagged for a closer look

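Among 628 named and listed genes measured on all 4 arrays, 4 were at least 2-fold apart between genotypes in opposite directions without and with doxorubicin. Over all 16505 genes measured on 4 arrays, 23 went from lower to higher and 16 from higher to lower. Fgf13 and Cntfr were named because their untreated ratios were among the 12 highest. These differences were not tested, and each value rests on 1 array a side. Fgf13 had a log2 ratio of p53-/- over WT of 2.73 without the agent and -1.01 with it, with signals of 138 and 832, then 681 and 450. Cntfr, the receptor for ciliary neurotrophic factor, had ratios of 1.87 and -2.17. Lum, the matrix proteoglycan lumican, had ratios of -1.34 and 1.13, and its WT signal was 18970 without the agent and 595 with it. Sod3 had ratios of -1.46 and 1.97, with signals of 4552 and 1502, then 721 and 3751. For Lum and Sod3 the WT signal was the highest of the 4 arrays without the agent and the lowest with it.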

How the results depend on the processing

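Over the scaling, background, filter and probe alternatives, the median log2 ratio of p53 targets ran from -1.05 to -0.95 and that of cell cycle genes from 0.83 to 0.91. The counts depended on the treatment of dim probes and on the fold limit. Against 372 higher and 452 lower genes, no filter on dim probes gave 1444 and 1674, a 1.5-fold limit 1510 and 1503, and a 3-fold limit 44 and 123. Normexp background correction gave 219 higher genes (304 lower), and keeping genes above the brightest negative control on both arrays gave 288 lower genes (284 higher). Array median scaling moved the median of all genes to -0.05 and the higher share of called genes from 45.1% to 37.8%. Of 120 named or listed genes at least 2-fold apart, 26 fell under 2-fold in some alternative and 0 changed direction. Of 44 list medians 12 changed sign somewhere, with the main median of each between -0.26 and 0.03. No paired analysis was possible because each group holds 1 array. Signals near the brightest negative control (108 and 250.1) limit what can be said of dim genes.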
